A study of Homo sapiens with 6 samples.

Results

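The genes described here are 49 genes that mark an epithelial or a mesenchymal cell state: keratins, junction genes, epithelial regulators, and mesenchymal transcription factors and markers. They were chosen by gene symbol from known roles, with earlier results of these libraries in view, in which 1 parental library had been set beside the others on these genes. Of the 12308 rows of the series, 41 belonged to these members, 28 of 36 epithelial and 13 of 13 mesenchymal genes. CDH1, CLDN3, MARVELD2, MARVELD3, GRHL1, GRHL2, ST14 and RAB25 were not analysed here. RNA-seq had been performed on total RNA of OVCAR5, a human ovarian cancer cell line (3 samples, the parental group), and of OVCAR5R (3 samples), which was derived from OVCAR5 by culture in rising concentrations of prexasertib (Prex), an inhibitor of the cell cycle checkpoint kinase CHK1 (CHK1i), up to 3 µM. PrexR cells were kept at 2 µM of Prex and grown free of drug for 4 days or more before use. Both groups shared the same medium, with serum and insulin. OVCAR5R is 1 resistant derivative of 1 parental line. The study's methods describe the RNA as prepared from 3 cultures of each line, and the samples are called cultures here. The p-values measure the spread between cultures of 1 line, and not between independently derived resistant lines.

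Epithelial cells hold to one another through adherens junctions, tight junctions and desmosomes, and carry keratin filaments. Mesenchymal cells carry vimentin filaments, deposit fibronectin and migrate as single cells. In epithelial-mesenchymal transition, a program of development, wound repair and carcinoma, the ZEB, SNAI and TWIST transcription factors lower epithelial genes, while ESRP splicing factors, GRHL factors and ELF3 act on the epithelial side. ZEB and SNAI proteins bind an E-box with the letters CAGGTG, which reads CACCTG on the other strand, and they repress several junction genes through it.

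RefSeq promoters on GRCh38.p14 were at hand for 15 epithelial and 9 mesenchymal members with values. In the 250 bases before the start, the E-box CAGGTG (either strand, so that CAGGTG and CACCTG are 1 motif) was present for 9 of the 15 epithelial genes (60.0%), namely CLDN7, DSG2, DSP, ELF3, JUP, OCLN, SPINT1, TJP1 and TJP3. It was present for 1 of the 9 mesenchymal genes, ZEB1, and for 5635 of 27305 genes in all (20.6%). A gene with several promoters has more chances of a match. Counted by promoter, the shares were 41.7% for epithelial members, 10.0% for mesenchymal members and 17.5% for all. AACCGGTT (its own reverse complement), the site of GRHL factors, was in 0 of the 15 and 0 of the 9, and in 39 of the 27305 (0.143%). These matches describe letters and not bound sites.

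The sequences below belong to the 5 members with the E-box whose values in OVCAR5 replicate 2 lay farthest above the other cultures, the pattern described next. Promoters were at hand for 10 of the epithelial members more than 1 (log2) above every other culture, and not for others such as EPCAM, KRT19 and ESRP1. The E-box was present for 6 of the 10 (60.0%), the share of all 15 epithelial genes. The 15 include these 10, so the shares cannot show whether the E-box goes with the pattern. DSP, DSG2 and TJP1 also had the E-box, and OVCAR5 replicate 2 was not their highest culture. The printed sequences are given 5′ to 3′ with each E-box in capitals. TJP3, SPINT1, JUP and CLDN7 each also have another promoter, with 0 matches, so their sites belong to 1 start and not to every start of the gene. For TJP3, the 250 bases before the start with the E-box (chr19:3721487-3721736, plus strand) hold 1 match, which begins 7 bases before that start. The other TJP3 promoter is at chr19:3708134-3708383.
TJP3: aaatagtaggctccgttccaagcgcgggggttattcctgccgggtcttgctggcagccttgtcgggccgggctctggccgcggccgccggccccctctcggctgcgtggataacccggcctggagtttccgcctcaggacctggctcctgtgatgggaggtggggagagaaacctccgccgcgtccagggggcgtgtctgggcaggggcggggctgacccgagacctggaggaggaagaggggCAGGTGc
For the other 4 genes, whose windows overlap annotated exons of other transcripts of the same gene, only the sites are given. SPINT1 had 1 match, 26 bases before the start (chr15:40844441-40844466, plus strand). ELF3 had 1 match, 120 bases before the start (chr1:202010457-202010482, plus strand). JUP had matches 54 and 43 bases before the start, in 1 stretch (chr17:41786014-41786040, minus strand). CLDN7 had 4 matches, which began 174, 135, 20 and 9 bases before the start, the last 2 in 1 stretch (chr17:7262637-7262662, chr17:7262598-7262623 and chr17:7262482-7262508, minus strand).
SPINT1: ccgggctgatCAGGTGtgtctcctcc
ELF3: atatgcaaatCACCTGgggccaggag
JUP: actctggcccCACCTGccgagCAGGTG
CLDN7, from 174 bases before the start: tcttcctcctCACCTGggcaaggagg
CLDN7, from 135 bases before the start: acttccggttCAGGTGagtgtccctt
CLDN7, from 20 and 9 bases before the start: tacatatactCAGGTGcgcccCACCTG

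The values are a normalized signal per gene on a linear scale. It is not divided by gene length, so levels are compared between cultures and not between genes. Depth, in units of 1e6 estimated reads, was 41.3, 35.8 and 41.0 in OVCAR5 replicates 1, 2 and 3 and 50.3 to 55.1 in OVCAR5R. Across the 11766 genes tested, log2(value + 1) of OVCAR5 replicate 2 correlated with the other libraries at 0.850 to 0.898, and every other pair at 0.921 to 0.963. These correlations are across genes, which are not independent replicates. OVCAR5 replicate 2 therefore stood apart from both lines, and the comparison of the lines below is given with and without it. It is labelled as parental OVCAR5. Whether it came from the same stock of cells as replicates 1 and 3 was not tested, so OVCAR5 means, SDs and fold changes that include it may not stand for 1 cell population. It was also the shallowest library, and the part of depth in its values was not tested.

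OVCAR5 replicate 2 held more RNA of most epithelial members and less of several mesenchymal members than any other culture. Because the members were chosen with this library in view, its distance from the others is a description, with no test. In a bulk sample, more cells of a type and more RNA per cell cannot be told apart. OVCAR5 replicate 2 was the highest of the 6 cultures for 23 of the 28 epithelial members, where it was the highest for 3234 of all 12308 genes. It was the lowest for 8 of the 13 mesenchymal members, where it was the lowest for 3225 of all genes. It lay more than 1 on the log2(value + 1) scale above each other culture for 19 epithelial members (3.17% of all genes) and as far below for 5 mesenchymal members, ZEB1, SNAI2, VIM, SPARC and MSN (1.55% of all genes). Together these were 24 of 41 members (58.5%). Just inside this margin were EPS8L2, 1.51 above the highest other culture, and SPARC, 1.21 below the lowest, and just outside was KRT7, 0.69 above. The median log2 difference from the mean of the other 5 cultures was 2.47 for the epithelial members (range -0.29 to 7.56), -0.55 for the mesenchymal members (range -3.69 to 0.18) and -0.02 for all genes. The mesenchymal median includes ZEB2, TWIST1, TWIST2 and CDH2, which were at or near 0 in most cultures and had little room to fall. Their differences were -0.26, -0.04, -0.04 and -0.49. With a pseudocount of 0.1 the mesenchymal median was -1.08.

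**Figure D1:**
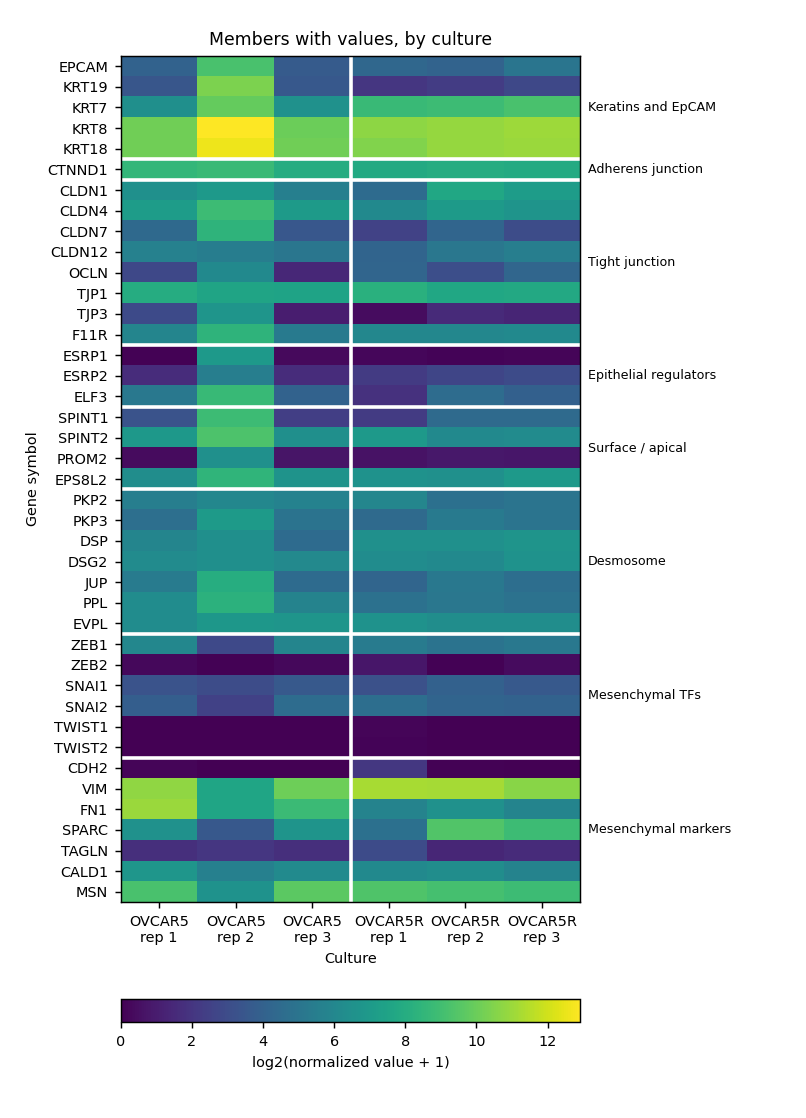
Heat map of log2(normalized value + 1), by the color bar, for the 41 members with values (rows, grouped by role) in the 6 cultures (columns). The column of OVCAR5 replicate 2 is brighter than the others for most epithelial rows, such as KRT19 and ESRP1, and darker for VIM, ZEB1, SPARC and MSN.

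The other 5 cultures did not part from the rest in this way. Members more than 1 (log2) outside all other cultures numbered 1 in OVCAR5 replicate 1 (FN1, above; 0.447% of all genes), 2 in OVCAR5 replicate 3 (OCLN and DSP, below; 0.569% of all genes) and 3 in OVCAR5R replicate 1 (CLDN1 and ELF3, below, and CDH2, above; 1.23% of all genes). There were 0 in OVCAR5R replicates 2 and 3, beside 0.341% and 0.382% of all genes. Over the 35 members that passed the filter on low values, the median SD of log2(value + 1) was 1.54 among the 3 OVCAR5 cultures, 0.34 between OVCAR5 replicates 1 and 3, and 0.40 in OVCAR5R. Over all genes tested these medians were 0.34, 0.23 and 0.25.

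The keratins and EpCAM mark simple epithelium, and all 5 were highest in OVCAR5 replicate 2. KRT19 (chr17:41523617-41528308), a keratin of simple epithelium, was at 9.99, 1341 and 10.7 in OVCAR5 replicates 1, 2 and 3 and at 3.09, 3.87 and 6.04 in OVCAR5R. OVCAR5 replicate 2 was thus 126-fold over the highest other culture, and the OVCAR5R cultures were all below the OVCAR5 cultures. EPCAM (chr2:47345158-47387601), the epithelial cell adhesion molecule, was at 15.9, 597 and 11.9 in OVCAR5 and at 19.1, 16.3 and 31.7 in OVCAR5R. OVCAR5 replicate 2 was 18.8-fold over the next culture, while the remaining 5 differed by 2.67-fold at most. KRT7 (chr12:52232520-52252186), a keratin of glandular epithelium, was at 85.8, 939 and 92.7 in OVCAR5 and at 431, 465 and 583 in OVCAR5R. Here OVCAR5 replicate 2 was 1.61-fold over the highest OVCAR5R culture, and all OVCAR5R cultures lay above OVCAR5 replicates 1 and 3. KRT8 and KRT18 encode the partner chains of the first filaments of simple epithelium. KRT8 was at 1094, 7772 and 1031 in OVCAR5 and at 1685, 1856 and 2103 in OVCAR5R. KRT18 was at 1119, 6196 and 1108 in OVCAR5 and at 1398, 1861 and 1992 in OVCAR5R. Both showed the order of KRT7, with OVCAR5 replicate 2 highest, OVCAR5R next, and OVCAR5 replicates 1 and 3 lowest. Their annotations overlap by 1084 bases on opposite strands of chromosome 12, both have processed pseudogenes, and the strandedness of the counting is not given in the sources used here, so their separate values are uncertain.

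Of the adherens junction, CTNND1, which encodes p120-catenin and stabilizes cadherins at the membrane, was at 374, 436 and 259 in OVCAR5 and at 233, 254 and 238 in OVCAR5R. The groups did not overlap, but OVCAR5 replicate 3 was close to the highest OVCAR5R culture.

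Among the 8 tight junction members with values, 5 had OVCAR5 replicate 2 more than 1 (log2) above every other culture, and the median difference was 2.31. CLDN7, a claudin of the paracellular seal whose E-boxes are printed above, was at 20.1, 342 and 10.5 in OVCAR5 and at 4.86, 17.5 and 7.04 in OVCAR5R. CLDN4, a claudin that many carcinomas carry, was at 142, 464 and 133 in OVCAR5 and at 68.6, 131 and 101 in OVCAR5R, without overlap. TJP3, which encodes the scaffold ZO-3, was at 6.53, 106 and 1.01 in OVCAR5 and at 0.339, 1.92 and 1.57 in OVCAR5R. Outside OVCAR5 replicate 2, CLDN7 did not pass 20.1 and TJP3 did not pass 6.53. OCLN, encoding the membrane protein occludin, was at 6.07, 68.7 and 1.67 in OVCAR5 and at 17.5, 7.69 and 17.9 in OVCAR5R. F11R, the junctional adhesion molecule A, was at 57.2, 341 and 38.7 in OVCAR5 and at 61.9, 61.8 and 68.5 in OVCAR5R. For both genes the OVCAR5R cultures lay above OVCAR5 replicates 1 and 3 and below replicate 2. The general scaffold TJP1 (ZO-1) did not follow this order, with 255, 187 and 181 in OVCAR5 and 292, 207 and 225 in OVCAR5R. CLDN1 varied among the OVCAR5R cultures (21.7, 207 and 141) more than in OVCAR5 (88.7, 125 and 47.3). CLDN12 had OVCAR5 replicate 2 within the range of the others.

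The epithelial regulators had a median difference of 4.79, the highest of the roles. ESRP1, which directs epithelial splicing, was at 122 in OVCAR5 replicate 2 and at 0.07 and 0.279 in OVCAR5 replicates 1 and 3. In OVCAR5R it was at 0.170, 0.109 and 0.130, so that OVCAR5 replicate 2 was 437-fold over the highest other culture and the gene stayed under the filter. Its paralog ESRP2 was at 2.08, 44.6 and 2.11 in OVCAR5 and at 3.80, 5.52 and 6.65 in OVCAR5R. ELF3, an epithelial factor of the ETS family, was at 34.4, 418 and 15.5 in OVCAR5 and at 2.62, 23.2 and 14.5 in OVCAR5R. All 3 regulators were highest in OVCAR5 replicate 2, and ELF3 was lowest in OVCAR5R replicate 1.

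All 4 surface members with values were more than 1 (log2) higher in OVCAR5 replicate 2 than in every other culture. SPINT1 and SPINT2 encode Kunitz-type inhibitors of serine proteases at the epithelial surface. SPINT1 was at 8.91, 459 and 4.31 in OVCAR5 and at 3.81, 21.3 and 21.0 in OVCAR5R. SPINT2 was at 116, 627 and 86.0 in OVCAR5 and at 121, 68.3 and 75.1 in OVCAR5R. PROM2, the membrane glycoprotein prominin-2, was at 89.9 in OVCAR5 replicate 2 and between 0.292 and 0.796 in the other 5 cultures, which kept it under the filter. EPS8L2, an EPS8 family protein of the actin cytoskeleton, was at 80.1, 344 and 98.5 in OVCAR5 and at 96.9, 87.8 and 121 in OVCAR5R.

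The 7 members of the desmosome and the cornified envelope split. JUP (plakoglobin), PKP3 (plakophilin 3) and PPL (periplakin) were more than 1 (log2) higher in OVCAR5 replicate 2 than elsewhere. JUP was at 40.0, 269 and 22.1 in OVCAR5 and at 17.3, 35.0 and 24.3 in OVCAR5R. PKP3 was at 25.5, 131 and 29.5 in OVCAR5 and at 21.3, 38.6 and 30.7 in OVCAR5R. PPL, which links keratins to the desmosome, was at 76.8, 309 and 54.5 in OVCAR5 and at 27.3, 34.0 and 28.6 in OVCAR5R, without overlap. DSP (desmoplakin), the main plaque protein, was at 58.0, 86.2 and 21.7 in OVCAR5 and at 88.6, 86.9 and 101 in OVCAR5R, so the highest OVCAR5 culture was just under the lowest OVCAR5R culture. The desmosomal cadherin DSG2 (75.1 ± 9.89 in OVCAR5, 80.9 ± 14.2 in OVCAR5R, SD, n = 3 each), EVPL (envoplakin; 99.2 ± 19.9 and 84.5 ± 9.45) and PKP2 (53.0 ± 8.59 and 39.1 ± 18.5) differed in this, since OVCAR5 replicate 2 was at most 0.08 (log2) above the highest other culture.

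**Figure D2:**
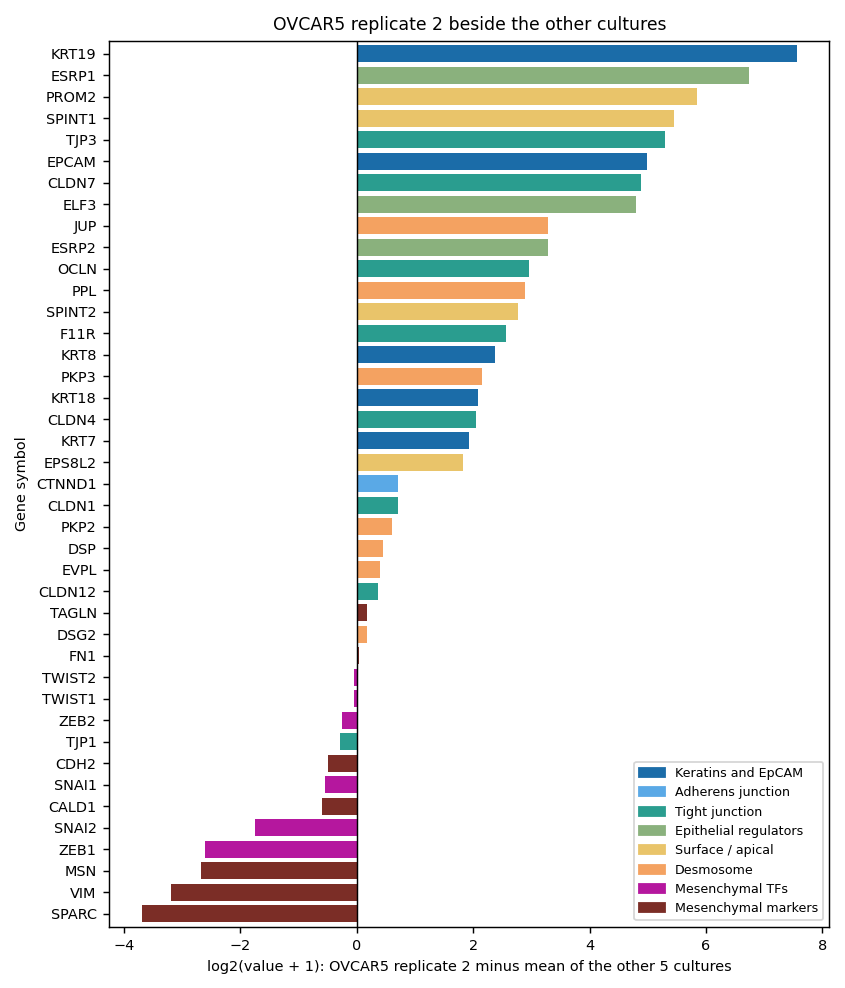
Difference in log2(normalized value + 1) between OVCAR5 replicate 2 and the mean of the other 5 cultures (horizontal axis) for each of the 41 members, colored by role. The bars run from 7.56 for KRT19 to -3.69 for SPARC, with TJP1 the lowest epithelial member at -0.29.

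On the mesenchymal side, all 6 transcription factors had values, and ZEB2, TWIST1 and TWIST2 were under the filter. ZEB1 (chr10:31318495-31529814), a repressor of epithelial genes, was at 61.4, 6.21 and 56.9 in OVCAR5 and at 40.8, 29.3 and 35.6 in OVCAR5R. The lowest other culture was 4.72-fold over OVCAR5 replicate 2. SNAI2 (Slug) was at 13.3, 4.69 and 22.8 in OVCAR5 and at 24.5, 16.9 and 15.6 in OVCAR5R. ZEB1 and SNAI2 were lowest in the culture with the highest epithelial values. SNAI1 (Snail) was at 9.04, 6.95 and 11.1 in OVCAR5 and at 8.07, 15 and 11.3 in OVCAR5R, with OVCAR5 replicate 2 only just the lowest. ZEB2 did not pass 0.697 in any culture. TWIST1 was listed at 0 except in OVCAR5R replicate 1 (0.132), and TWIST2 except in OVCAR5R replicates 1 (0.113) and 3 (0.04).

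Of the mesenchymal markers, VIM (chr10:17228259-17237593), which encodes vimentin, was at 1731, 190 and 1063 in OVCAR5 and at 2379, 2324 and 1557 in OVCAR5R. The lowest other culture was 5.6-fold over OVCAR5 replicate 2. MSN (moesin), which ties actin to the membrane, was at 600, 94.1 and 800 in OVCAR5 and at 661, 546 and 464 in OVCAR5R. For VIM and MSN the other 5 cultures differed by at most 2.24-fold and 1.73-fold, and OVCAR5 replicate 2 was below them all. SPARC, a secreted matrix protein, was at 91.4, 10.9 and 102 in OVCAR5 and at 26.5, 690 and 463 in OVCAR5R, a 26.1-fold range among the 5 cultures other than OVCAR5 replicate 2. FN1 (chr2:215360440-215436172), which encodes the matrix protein fibronectin, was at 2004, 195 and 449 in OVCAR5 and at 53.6, 91.1 and 56.7 in OVCAR5R. OVCAR5 replicate 2 lay between the other OVCAR5 cultures and OVCAR5R. CDH2 (N-cadherin) was at 3.19 in OVCAR5R replicate 1, listed at 0 in OVCAR5 replicate 2, and between 0.03 and 0.146 in the remaining cultures. TAGLN (transgelin; 1.62 to 6.74) had OVCAR5 replicate 2 within the range of the others. CALD1 (caldesmon; 49 to 109) was lowest in OVCAR5 replicate 2 by a small margin.

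**Figure D3:**
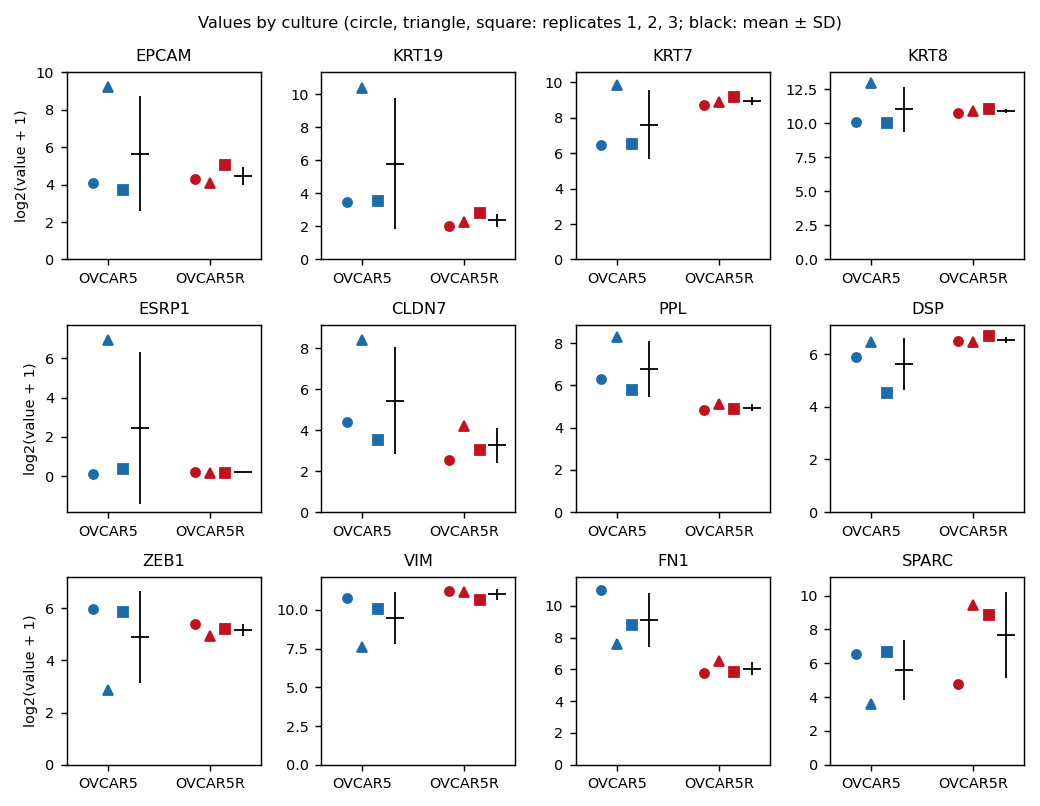
log2(normalized value + 1) of 12 members in OVCAR5 (blue) and OVCAR5R (red), with the mean ± SD of each line in black (n = 3) and an axis of its own for each gene. OVCAR5 replicate 2 (blue triangle) sets the wide OVCAR5 bars except for DSP, where replicate 3 is low (21.7), and FN1, where replicate 1 is high (2004). The OVCAR5R cultures of KRT7 (431 to 583) and FN1 (53.6 to 91.1) lie apart from OVCAR5 replicates 1 and 3.

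The comparison of OVCAR5R with OVCAR5 asked which of these genes differ in the PrexR line. A total of 35 members passed the filter, 26 epithelial and 9 mesenchymal. ESRP1, PROM2, ZEB2, TWIST1, TWIST2 and CDH2 were not tested. With all 6 cultures, limma called 0 members at an adjusted p under 0.05, where 14 of 11766 genes (0.119%) were called, and the lowest adjusted p of a member was 0.249 (FN1). At an unadjusted p under 0.05 there were 2 members (5.71%), PPL and FN1, both lower, beside 10.4% of all genes. The cultures of the lines did not overlap for 6 members, with DSP higher (8.40% of all genes were higher without overlap) and KRT19, CTNND1, CLDN4, PPL and FN1 lower (8.18% of all genes). The median log2 fold change was -0.51 for the 26 epithelial members, of which 20 had a lower and 6 a higher mean in OVCAR5R. It was 0.30 for the 9 mesenchymal members (7 higher, 2 lower) and -0.01 for all genes.

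FN1 had a log2 fold change of -3.08 (SE 0.73, limma adjusted p = 0.249) and PPL of -1.84 (SE 0.57, adjusted p = 0.333). KRT19 had -3.42 (SE 1.64, adjusted p = 0.512) and CLDN4 had -1.08 (SE 0.48, adjusted p = 0.489). VIM had 1.54 (SE 0.72, adjusted p = 0.501) and DSP 0.93 (SE 0.44, adjusted p = 0.513). None of these passed the test after correction.

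Without OVCAR5 replicate 2, that is 2 OVCAR5 cultures against 3 OVCAR5R cultures, limma called 29 genes (0.246%), of which 8 were higher in OVCAR5R (0.068%). One of the 8 was a member, KRT7. Its mean in OVCAR5R was 493 ± 79.9 (SD, n = 3), 5.53-fold over the mean of OVCAR5 replicates 1 and 3, with a log2 fold change of 2.44 (SE 0.21, adjusted p = 0.0185). With all 6 cultures KRT7 had a log2 fold change of 1.31 (SE 0.82, adjusted p = 0.611), so the call rests on leaving out OVCAR5 replicate 2. At an unadjusted p under 0.05 there were 10 of 35 members (28.6%), beside 10.8% of all genes. Higher were KRT7, KRT8, KRT18, OCLN, ESRP2 and DSP, and lower were KRT19, PPL, ZEB1 and FN1. Each of these except KRT7 failed the correction.

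The cultures did not overlap for 14 of the 35 members (40.0%) without OVCAR5 replicate 2. Of the 26 epithelial members, 8 were higher (30.8%, beside 13.8% of all genes), namely EPCAM, KRT7, KRT8, KRT18, OCLN, F11R, ESRP2 and DSP. Another 4 were lower (15.4%, beside 13.7% of all genes), namely KRT19, CTNND1, CLDN4 and PPL. Of the 9 mesenchymal members, 2 were lower, ZEB1 and FN1, and 0 were higher. The epithelial list was thus mixed in direction, with a median log2 fold change of 0.12 (14 higher and 12 lower means). The median was 0.09 for the mesenchymal members (5 higher, 4 lower) and -0.00 for all genes. The keratins themselves divided, with KRT7, KRT8 and KRT18 on the higher side and KRT19 on the lower side.

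Without OVCAR5 replicate 2, FN1 had a log2 fold change of -3.84 (SE 0.58, limma adjusted p = 0.0736), and the mean of OVCAR5 replicates 1 and 3 was 18.3-fold over that of OVCAR5R (67.1 ± 20.8, n = 3). PPL had -1.09 (SE 0.23, adjusted p = 0.166), KRT19 -1.12 (SE 0.32, adjusted p = 0.292) and CLDN4 -0.50 (SE 0.28, adjusted p = 0.587). ZEB1 had -0.74 (SE 0.22, adjusted p = 0.313), where with all 6 cultures it had 0.28 (SE 0.75, adjusted p = 0.930). The sign of ZEB1 thus turned with the 1 library in which it was lowest. EPCAM turned as well, from -1.17 (SE 1.29, adjusted p = 0.789) to 0.61 (SE 0.32, adjusted p = 0.555). KRT8 went from -0.14 (adjusted p = 0.965) to 0.82 (SE 0.22, adjusted p = 0.262), and KRT18 from -0.19 (adjusted p = 0.943) to 0.64 (SE 0.24, adjusted p = 0.414). VIM kept its sign, with 0.59 (SE 0.31, adjusted p = 0.555), and so did DSP, with 1.34 (SE 0.38, adjusted p = 0.292).

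**Figure D4:**
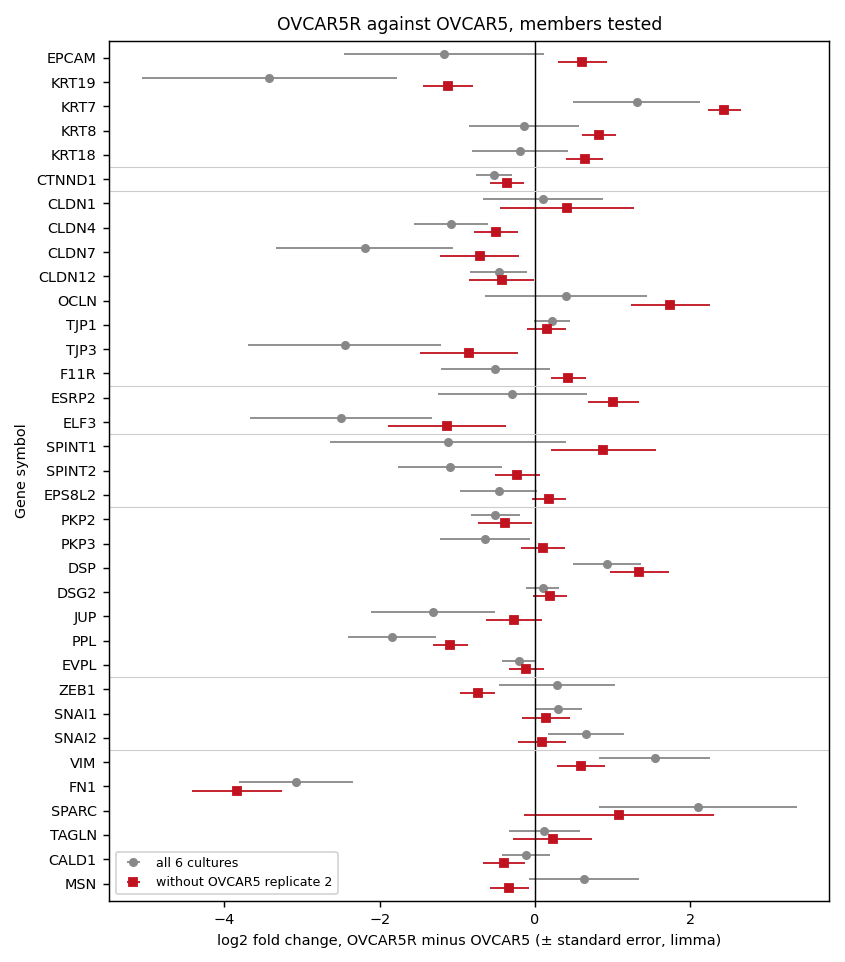
log2 fold change of OVCAR5R minus OVCAR5 with its standard error by limma (horizontal axis) for the 35 members tested, with all 6 cultures (grey circles) and without OVCAR5 replicate 2 (red squares). KRT7 moves from 1.31 to 2.44 and its error from 0.82 to 0.21, FN1 stays the lowest or next to lowest in both, and EPCAM, KRT8, KRT18 and ZEB1 change sign.

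Further genes of the same programs were taken from 2 lists that do not overlap the members. Of 46 other epithelial genes, 25 had values and 23 were tested. Limma called 0 of the 23 with or without OVCAR5 replicate 2. At an unadjusted p under 0.05 there were 4 of 23 with all cultures, 2 in each direction, beside 10.4% of all genes, and 9 of 23 without OVCAR5 replicate 2, 7 higher and 2 lower, beside 10.8% of all genes. The median log2 fold change was -0.44, or 0.23 without OVCAR5 replicate 2. OVCAR5 replicate 2 was the highest culture for 18 of the 25 (3234 of all 12308 genes) and more than 1 (log2) above the rest for 12 (3.17% of all genes). AP1M2, an adaptor subunit of polarized sorting, was at 0.05, 153 and 0.228 in OVCAR5 and at 1.51, 1.07 and 4.21 in OVCAR5R. KRT20, a keratin of gut epithelium, was at 6.97, 250 and 2.91 in OVCAR5 and at 2.19, 0.597 and 22.9 in OVCAR5R. Both were far higher in OVCAR5 replicate 2 than in any other culture, as KRT19 and ESRP1 were among the members. CDH3 (P-cadherin) and EHF, an epithelial factor of the ETS family, were at 30.4 and 143 in that culture and at most at 0.776 and 13.1 elsewhere. SCNN1A, a subunit of the epithelial sodium channel, was at 113, 256 and 35.2 in OVCAR5 and at 5.02, 16 and 9.58 in OVCAR5R, lower without overlap (log2 fold change -3.31, SE 0.68, adjusted p = 0.182, and -2.64, SE 0.57, adjusted p = 0.166 without OVCAR5 replicate 2). The highest log2 fold changes were those of FOXA1 (1.11), MPP5 (0.78) and CXADR (0.67), with adjusted p-values of 0.464, 0.367 and 0.614. Without OVCAR5 replicate 2 they were 1.64, 0.61 and 1.11, with adjusted p-values of 0.121, 0.451 and 0.298.

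Of 35 other mesenchymal genes, 23 had values and 20 were tested. Limma called 0 of the 20 with or without OVCAR5 replicate 2. At an unadjusted p under 0.05 there were 5 of 20 with all cultures, 4 higher and 1 lower, beside 10.4% of all genes, and 8 of 20 without OVCAR5 replicate 2, 6 higher and 2 lower, beside 10.8% of all genes. The median log2 fold change was 0.52, or 0.37 without OVCAR5 replicate 2. OVCAR5 replicate 2 was the lowest culture for 12 of the 23 (3225 of all 12308 genes), and more than 1 (log2) below the rest for 4 (1.55% of all genes). TPM1 (tropomyosin) was at 123, 55.1 and 136 in OVCAR5 and at 301, 240 and 262 in OVCAR5R (log2 fold change 1.44, SE 0.34, adjusted p = 0.244, and 1.04, SE 0.20, adjusted p = 0.126 without OVCAR5 replicate 2). It was lowest in OVCAR5 replicate 2 and higher without overlap in OVCAR5R. The collagen VI chains COL6A1 (183) and COL6A2 (63.7) and the collagen V chain COL5A2 (0.319) were also lowest in OVCAR5 replicate 2. That culture was the highest for 2 of the 23, the collagen I chain COL1A1 (15.2, beside 1.29 to 9.03 elsewhere) and CNN2 (329, beside 149 to 206). NNMT had a log2 fold change of 1.80 (SE 0.94, adjusted p = 0.540), and LOX, LGALS1 and CNN2 had -1.01, -0.89 and -0.51 (adjusted p = 0.557, 0.257 and 0.541). Without OVCAR5 replicate 2, NNMT had 1.70 (SE 1.09, adjusted p = 0.625), and LOX, LGALS1 and CNN2 had -1.62, -1.0 and -0.24 (adjusted p = 0.179, 0.163 and 0.719).

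Markers of cell types were read beside these values. Of 8 markers of ovarian (Mullerian) epithelium, PAX8, WT1 (the gene of the Wilms tumor factor), MSLN and FOLR1 had values, with a summed normalized value of 11.3 to 34.0 in OVCAR5 and 8.63 to 11.3 in OVCAR5R. Of 9 markers of gut epithelium, CDX2 and KRT20 had values, with sums of 9.52, 258 and 5.40 in OVCAR5 and 4.77 to 27.4 in OVCAR5R. The gut sum was highest in OVCAR5 replicate 2 through KRT20, while CDX2 was at 7.67 there and at 2.48 to 4.55 elsewhere. Of 8 fibroblast markers, COL1A1 and PDGFRB had values, summing to 1.77 to 15.3 in OVCAR5 and 6.95 to 9.99 in OVCAR5R. CD14 was the only one of 6 blood markers (3.55 to 20.2 and 2.02 to 5.67), and none of 6 endothelial markers had values used here. No listed marker was at 0 in any culture. Ovarian, gut, fibroblast and blood sums were all highest in OVCAR5 replicate 2, and their part in the values of the members was not tested. Of the ovarian markers, FOLR1 was at 16.5 in OVCAR5 replicate 2 and at 0.684 to 4.24 elsewhere. MSLN was at 6.11 there and at 0.244 to 1.6 elsewhere, and PAX8 was also highest there (11.4). Some single markers differed from these sums. COL1A1 was at 15.2 in OVCAR5 replicate 2, but PDGFRB (0.145) and WT1 (0.03) were lowest in that culture. PAX8 was lower in OVCAR5R without overlap, at 8.38 to 11.4 in OVCAR5 and 4.38 to 5.66 in OVCAR5R (limma adjusted p = 0.315). WT1 was higher in OVCAR5R without overlap, but it was under the filter and did not pass 0.727.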

How the data were processed

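RNA-seq of total RNA from 3 OVCAR5 and 3 OVCAR5R samples was analyzed from deposited values. The authors deposited a normalized signal per gene and library, on a linear scale, scaled by 1 factor per library (quartile normalization is stated). The submitters' processing notes name the build hg38. The aligner, counter, annotation and gene filter are not given in the sources used here. Only 61.7% to 65.3% of the values were whole multiples of what 1 estimated read was worth (tolerance 0.005 reads), so no count test was run, although the design had named one for counts. One identical copy of a row was dropped, leaving 12308 of 12309 rows. Depth was 35.8 to 55.1 per library in units of 1e6 estimated reads, and the spread between 3 libraries per line limits precision.

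Values were taken as log2(value + 1), which understates the change of low genes. The 11766 genes that reached 1 in 3 or more of the 6 libraries entered limma (version 3.58.1; R version 4.3.3), with lmFit and trended eBayes and no covariates. Two-sided p-values were corrected after Benjamini and Hochberg over these genes, with a threshold of 0.05. The fit was tested on simulated data with the same spread for every gene, taken from OVCAR5 replicates 1 and 3. No simulated library stood apart, so the fit was not tested with a library like OVCAR5 replicate 2. The members, the other gene lists and the tests were chosen with earlier results of these data known. Members named with values in every culture were a fixed set of junction, keratin and regulator genes, plus members with an unadjusted p under 0.05, groups without overlap, or OVCAR5 replicate 2 more than 1 (log2) outside the others. From the other lists, the 3 highest and 3 lowest fold changes and the 5 genes farthest out in OVCAR5 replicate 2 were named. Some genes that this rule picks are not reported here. Members named outside this rule were chosen after their values were seen. Same-numbered cultures were not paired, because the labels give no shared origin. Promoters came from RefSeq on GRCh38.p14, and positions from GENCODE release 29 on GRCh38. Figures were drawn with matplotlib version 3.10.9. Alternatives were another pseudocount, other filters, quantile normalization, limma without trend, the replicate number as a block, and each library left out.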

Additional observations from a re-analysis of the deposited data

How the results depend on the processing

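Over all genes, limma called 14 genes between OVCAR5R and OVCAR5, 5 with the replicate block, and 0 to 29 with 1 library left out. The lowest count came without OVCAR5R replicate 3 and the highest without OVCAR5 replicate 2. Of the members, 0 were called with all libraries or with the block, and 0 to 1 with 1 library left out. Without OVCAR5 replicate 2 the call was KRT7 (log2 fold change 2.44). Members without overlap numbered 6, and 7 to 14 with 1 library left out, where fewer libraries must be separated. The median difference of OVCAR5 replicate 2 from the others was 2.47 for epithelial members, and 2.34 to 2.57 with 1 library left out. It was -0.55 for mesenchymal members, -1.08 with a pseudocount of 0.1, and -0.63 to -0.56 with 1 library left out. KRT8 turned from -0.14 to 0.10 under quantile normalization.

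With each library left out in turn, fold changes were followed only for the tested members that the naming rule above picks. Among these the sign turned for 11, none of them called with all libraries. Members named outside that rule, such as CLDN1, DSG2, TAGLN and CALD1, were not followed over every library left out. Without OVCAR5 replicate 2, CLDN1 had 0.41, DSG2 0.19, TAGLN 0.23 and CALD1 -0.40, beside 0.10, 0.10, 0.12 and -0.12 with all libraries. These signs did not turn there, but they may turn with another library left out. The log2 fold changes ran from -2.16 to 0.61 for EPCAM, -0.64 to 0.82 for KRT8, -0.61 to 0.64 for KRT18, -0.62 to 1.74 for OCLN, -1.12 to 0.43 for F11R, -0.94 to 1.01 for ESRP2, -2.34 to 0.88 for SPINT1, -0.86 to 0.18 for EPS8L2, -1.06 to 0.10 for PKP3, -0.74 to 0.81 for ZEB1 and -0.33 to 1.21 for MSN. OCLN turned without OVCAR5 replicate 3, and the other 10 turned without OVCAR5 replicate 2. Deviations of same-numbered cultures from the means of their lines correlated at -0.00, 0.18 and -0.12, and those of other pairs at -0.19 to 0.25. With 3 cultures per line and OVCAR5 replicate 2 far from the others, these values cannot show whether the samples were paired. The cause of these shifts was not tested. With 3 libraries per line, the smallest p that exact permutation of 1 gene allows is 0.1.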
